A study of Mus musculus with 27 samples.

Results

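The 2 hours between 6 h and 8 h after hydrogen peroxide are described here in mouse embryonic stem cells, from 6 of the 27 RNA-seq libraries of a time course: 3 libraries taken at 6 h and 3 taken at 8 h, chosen by their time labels. Wild-type E14Tg2a cells, 1 established line, had been grown on gelatin in serum medium with LIF and the 2i supplement, which together hold such cells in the naive pluripotent state. The cells of both groups received 500 µM peroxide for 30 min, after which the medium was exchanged for spent medium from untreated cultures; times are counted from the start of the exposure. The other 7 groups were untreated cells at 0 h and 24 h and treated cells at 0.5 h, 2 h, 4 h, 10 h and 24 h, each with 3 libraries from 3 independent time courses. No library came from untreated cells at 6 h or 8 h or from cells given a medium change alone, so time since the peroxide and time in the exchanged medium cannot be told apart. Poly(A) RNA was sequenced from whole cultures, in which fewer cells of a type and less RNA per cell cannot be told apart.

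As background, the p53 protein is held low by Mdm2, a ubiquitin ligase that is itself a p53 target, so that the pathway raises its own inhibitor; other p53 targets arrest the cycle, repair DNA or start cell death. The naive state rests on a circuit of transcription factors around Oct4 (gene name Pou5f1), Sox2 and Nanog. Nodal signalling in these cells acts through Smad2 and Smad3 and raises its own secreted inhibitors, Lefty1 and Lefty2. NRF2, freed from Keap1 by oxidants, drives genes of glutathione and thioredoxin metabolism, and ATF4 drives amino acid supply and tRNA charging genes when translation initiation is restrained.

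Values are FPKM (fragments per kilobase of transcript, relative to the mapped total), divided here by 1 factor per library from the median of ratios, and are called scaled FPKM below. A fold is the ratio of the mean scaled FPKM of the 3 libraries at one time to that at the other. A log2 difference is taken on log2(scaled FPKM + 1), which understates the change of low genes, and is given with its standard error (SE). A gene was called at a Benjamini-Hochberg adjusted p under 0.05 in limma. The deposited values carry no read counts, so the depth is unknown; low values place the 6 libraries at 0.983 to 1.06 times the depth of 1 untreated library. The pluripotency markers summed to 2822 to 2991 scaled FPKM at 6 h and 2723 to 3158 at 8 h, with all 12 tested. Of markers of cells that such cultures should lack, 31 hepatocyte genes summed to 221 to 290 at 6 h and 208 to 277 at 8 h, 1 of 19 tested was called (Bhmt, lower), and Mup20 was at 0 in all 6 libraries. Of the 31, 26 were higher in the third 6 h, first 8 h and second 8 h libraries than in each of the other 3 libraries. Without Ass1, the most abundant (165 to 210), the other 30 summed to 26.0, 28.3 and 98.1 at 6 h and to 106, 94.9 and 29.5 at 8 h. Albumin (Alb) was 0, 0.127 and 18.0 at 6 h and 24.5, 18.5 and 0.0595 at 8 h, and it was called higher without the third 6 h library (adjusted p = 0.0138) or the third 8 h library (adjusted p = 0.00839). Leaving out the third 6 h, the first 8 h or the second 8 h library gave 2668, 2627 and 2645 called genes in all, in place of 3224. Of 10 neuron genes, which summed to 90.8 to 94.9 at 6 h and 97.5 to 113 at 8 h, 2 of 4 tested were called, both higher (Nefl and Tubb3); the call of Tubb3 was lost without the first 6 h, the third 6 h or the third 8 h library (adjusted p 0.0529 to 0.095). Both also stood below untreated cells at 6 h, where Tubb3 was 84.7. The 10 fibroblast markers summed to 2.47 to 2.94 at 6 h and 2.55 to 3.30 at 8 h, and 0 of them passed the filter. Of 11 tested markers of glia, blood, muscle and epithelium, 0 were called in limma and 1 had an unadjusted p under 0.05. The glial genes Gfap and Lcn2 were lowest in the first 6 h library (0.31 and 0, against 2.09 to 2.89 and 2.51 to 3.71 in the other 5). Several other glial, neuron and blood markers were also lowest in that library, but not all. The part of these other cell types in the results was not tested.

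The third 8 h library stood apart from the other two. Its log2 values rose with transcript GC content by 0.096 per 10 points of GC, against -0.070 and -0.061 in the other 8 h libraries and 0.008 to 0.016 at 6 h. Its ribosomal protein genes lay 0.174 above their mean over these 6 libraries at the median, while the other 8 h libraries lay 0.211 and 0.197 below it. Leaving it out gave 2779 called genes.

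Of 12501 tested genes, 3224 (25.8%) were called between 6 h and 8 h, 1608 higher at 8 h (12.9%) and 1616 lower (12.9%). Most changes were small: 56 genes rose and 73 fell by at least 1 on the log2 scale, and the median SE was 0.125. The median difference over all tested genes was -0.04. Without the scaling it was 0.06, and the calls then split into 2344 higher and 818 lower. In 6054 genes (48.4%) every library of one time lay above every library of the other. The neighbouring steps, which share libraries with this one, had 2909 called genes from 4 h to 6 h (23.3%; 1941 or 15.5% higher, 968 or 7.74% lower) and 800 from 8 h to 10 h (6.40%).

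The direction from 6 h to 8 h was split by the change at 4 h, a comparison with untreated cells at 0 h that shares no library with the step. There, 3576 genes were called (28.6%), 1766 higher (14.1%) and 1810 lower (14.5%). Of the 1766 genes that were higher at 4 h, 904 (51.2%) fell between 6 h and 8 h and 39 (2.21%) rose, beside backgrounds of 12.9% in each direction. Of the 1810 genes that were lower at 4 h, 1003 (55.4%) rose and 27 (1.49%) fell. Among the 8925 genes not called at 4 h, 566 (6.34%) rose and 685 (7.68%) fell. The median step was -0.27 in the first class, 0.33 in the second and -0.06 in the third. Without scaling, the calls at 4 h were also made anew, so the classes were not those of 1766 and 1810 genes. In that fit, 598 genes called higher at 4 h fell and 1089 called lower rose.

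**Figure D1:**
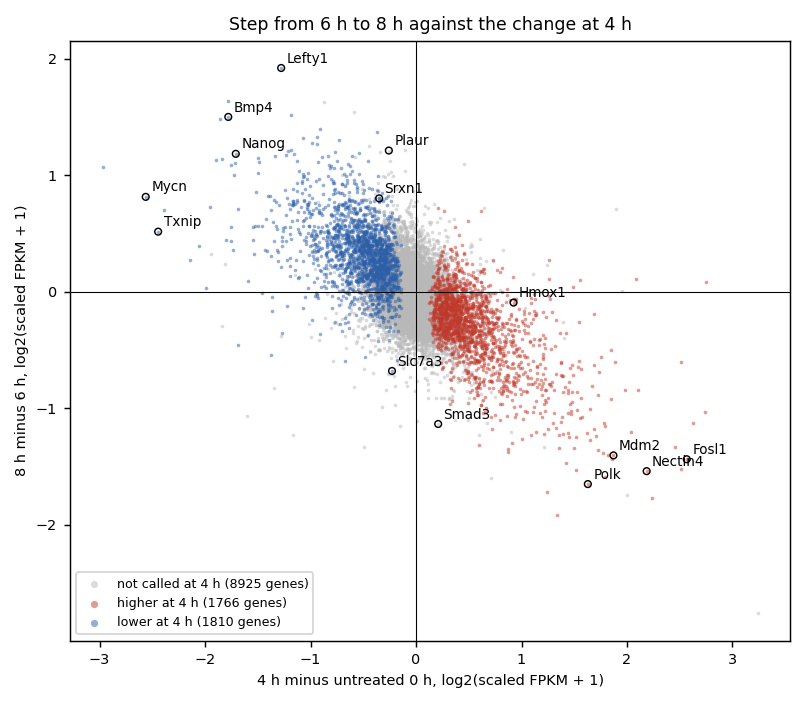
Each point is 1 of 12501 tested genes, with its log2(scaled FPKM + 1) difference between 4 h and untreated 0 h on the x axis and between 8 h and 6 h on the y axis, coloured by its call at 4 h; circled genes are named in the text. Genes lower at 4 h lie mostly above 0 on the y axis (median 0.33) and genes higher at 4 h mostly below it (median -0.27).

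The 12 largest rises held several genes of secreted signals. Lefty1, the Nodal inhibitor (ENSMUSG00000038793, chr1:180935022-180938400 in GRCm38), was 0.814, 0.605 and 1.23 scaled FPKM at 6 h and 5.76, 5.70 and 6.79 at 8 h. It was 6.88-fold higher at 8 h (log2 difference 1.92, SE 0.18, limma adjusted p = 1.14e-07), from the lowest level of its course to a mean of 6.08, beside 4.79 in untreated cells. Lefty2, its neighbour and close copy on chromosome 1, was 1.57, 2.35 and 2.21 scaled FPKM at 6 h and 5.95, 6.53 and 7.41 at 8 h, 3.25-fold higher (adjusted p = 1.81e-08); reads could be split between such similar genes, and which rule the counting used is not given in the sources used here. Bmp4, a bone morphogenetic protein that supports self-renewal beside LIF, was 3.55, 2.55 and 3.21 scaled FPKM at 6 h and 10.1, 9.56 and 12.1 at 8 h. Apela, which codes for a small peptide hormone made by these cells, was 17.8, 20.9 and 16.4 scaled FPKM at 6 h and 45.5, 39.7 and 51.9 at 8 h. In each of these genes the 2 groups of libraries did not overlap, which the choice of the largest rises required. The other large rises were Cdc42ep5, an effector of the small GTPase Cdc42 (5.23-fold), the serine protease Prss35 (3.88-fold), the Krüppel-like factor Klf13 (3.33-fold), the neurotrophin receptor Ngfr (3.001-fold), the glycosyltransferase A4galt (3.2-fold), the small GTPase Rhob (2.75-fold) and the ephrin receptor Ephb4 (2.95-fold). Sfn, which codes for 14-3-3 sigma, was 10.3, 10.7 and 11.4 scaled FPKM at 6 h and 26.8, 25.6 and 32.2 at 8 h (2.62-fold). Of these 12 genes, 12 had been called lower at 4 h, where 14.5% of all genes had been.

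The 12 largest falls held 3 listed p53 targets, Mdm2, Polk and Trp73, and several genes low in untreated cells. Polk, the gene of the translesion polymerase kappa (ENSMUSG00000021668, chr13:96480690-96542579 in GRCm38), was 19.1, 17.9 and 17.5 scaled FPKM at 6 h and 5.81, 5.70 and 3.99 at 8 h, 3.52-fold lower at 8 h (log2 difference -1.65, SE 0.18, adjusted p = 8.09e-07). Nectin4, a cell adhesion gene, was 14.2, 14 and 15.0 scaled FPKM at 6 h and 4.17, 4.30 and 4.44 at 8 h, against a mean of 1.10 in untreated cells. Fosl1, the AP-1 subunit Fra-1, was 6.72, 9.77 and 8.87 scaled FPKM at 6 h and 3.07, 2.08 and 2.30 at 8 h after 0.103 in untreated cells. Both had their highest mean of the 9 groups at 6 h and still stood above the untreated mean at 8 h. Trp73, the p53 relative p73, fell from 19.4 ± 0.936 to 6.09 ± 0.391 (mean ± SD, n = 3). The noncoding RNA Neat1, which builds paraspeckles, was 28.9, 22.9 and 26.4 scaled FPKM at 6 h and 12, 8.92 and 8.34 at 8 h. Hpcal1, a neuronal calcium sensor gene, fell 2.61-fold. Tas1r1 (3.27-fold), Zfp750 (2.98-fold), Ltb4r2 (3.52-fold) and Plekhg1 (2.64-fold) were also among them. Prrg4 turned on 1 library, with 11.6, 12.7 and 12.7 scaled FPKM at 6 h and 4.82, 6.27 and 1.64 at 8 h; without the third 8 h library its log2 difference was -1.03 and it was not called (adjusted p = 0.109, against 0.0152 with it). All 12 had been called higher at 4 h, where 14.1% of all genes had been.

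**Figure D2:**
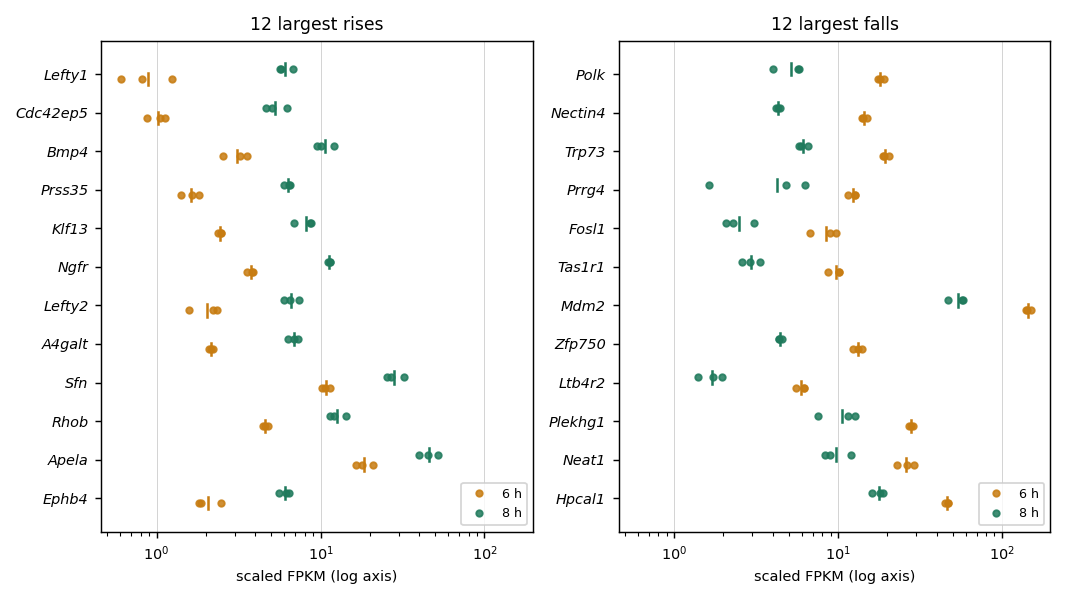
Points are scaled FPKM of single libraries on a log axis at 6 h (orange) and 8 h (green) for the 12 largest rises (left) and the 12 largest falls (right), and short bars are means of 3 libraries. The groups do not overlap in any of the 24 genes, which the choice of these genes required; the widest spread within a group is that of Prrg4 at 8 h.

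Most genes that p53 induces fell. Of 41 tested p53 targets, 26 were called lower and 2 higher, beside 12.9% of all genes in each direction, and their median difference was -0.55. At 4 h against untreated cells, 28 of the 41 had been called higher and 3 lower, beside 14.1% and 14.5% of all genes. Mdm2 (ENSMUSG00000020184, chr10:117688875-117710758 in GRCm38) was 142, 149.9 and 141 scaled FPKM at 6 h and 57.2, 58.0 and 47.1 at 8 h, a fall of 2.67-fold (log2 difference -1.40, SE 0.13, adjusted p = 9.29e-08). It had stood at 132 at 4 h and 36.0 in untreated cells, and the drop came within 1 sampling step. Ddit4, an inhibitor of the mTORC1 kinase, was 56.1, 61.8 and 56.7 scaled FPKM at 6 h and 22.5, 24.9 and 24.4 at 8 h (adjusted p = 2.63e-10). Sesn2, a sestrin that also restrains mTORC1, was 92.8, 98.6 and 91.0 scaled FPKM at 6 h and 51.0, 54.2 and 56.1 at 8 h, and its mean of 53.8 at 8 h lay near the 57.1 of untreated cells. Plk2, a p53-induced polo-like kinase, was 48.0, 49.3 and 47.0 scaled FPKM at 6 h and 26.1, 25.5 and 23.5 at 8 h. Ccng1, a cyclin G gene, declined from 191 ± 5.22 to 147 ± 7.84 (adjusted p = 0.00207), a call that was lost without scaling (adjusted p = 0.138). Cdkn1a, which codes for the cycle inhibitor p21, was 57.3, 56.9 and 54.9 scaled FPKM at 6 h and 42.3, 42.1 and 50.2 at 8 h; its groups did not overlap, but it was just short of a call (log2 difference -0.33, SE 0.12, adjusted p = 0.057). It was called lower in 10 of the alternatives, among them those without the third 8 h (adjusted p = 0.0343), the third untreated 0 h (0.0175), the first 2 h (0.0289) or the third 10 h library (0.0471). Without the third untreated 0 h library, the first 2 h library or the third 8 h library, 4 of the list were called higher and 26 to 29 lower. The 2 list members that rose, named after their values were seen, were Cdkn1b, another cycle inhibitor (4.50, 3.92 and 4.71 scaled FPKM at 6 h and 7.92, 8.16 and 7.15 at 8 h), and Tigar, a regulator of sugar metabolism (24.01, 24.1 and 23.96 scaled FPKM at 6 h and 32.8, 33.0 and 30.8 at 8 h).

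Death genes split by direction. Of 19 tested genes of the Bcl2 family and death pathway, 8 fell and 4 rose, beside 12.9% of all genes each way, with a median of -0.17; without scaling, 5 fell and 4 rose. Fas, the death receptor, was 4.04, 4.61 and 4.55 scaled FPKM at 6 h and 1.85, 1.58 and 1.81 at 8 h, after 0.316 in untreated cells. Tnfrsf10b, the TRAIL receptor, was 15.7, 16.1 and 15.5 scaled FPKM at 6 h and 9.13, 8.77 and 8.36 at 8 h. Apaf1, the scaffold of the apoptosome, was 25.4, 23.9 and 24.1 scaled FPKM at 6 h and 14.7, 15.2 and 10.02 at 8 h (adjusted p = 0.00488). All 3, picked by the size of their change, were lower in every 8 h library than in any 6 h library. Over the whole list 14 of 19 had no overlap, where 48.4% of all genes had none. Bbc3, the BH3-only gene Puma, was 17.6, 17.7 and 18.1 scaled FPKM at 6 h and 9.21, 9.69 and 12.02 at 8 h (adjusted p = 0.0338), a call that was lost when any 1 of 5 of these 6 libraries was left out (adjusted p 0.0739 to 0.108). The 4 that rose, named after their values were seen, were Bmf, Bcl2l1, Casp9 and Bid. Bcl2l1, which codes for the survival protein Bcl-xL, was 18.1, 19.2 and 18.6 scaled FPKM at 6 h and 23.7, 24.8 and 26.9 at 8 h. Bid, a BH3-only death gene like Bbc3, was 20.53, 19.85 and 20.6 scaled FPKM at 6 h and 24.35, 24.04 and 27.62 at 8 h. Mcl1, a survival gene of the same family, was also named after its value was seen. It fell, at 135, 138 and 138 scaled FPKM at 6 h and 118, 121 and 115 at 8 h (adjusted p = 0.00111). Both the rises and the falls thus held survival and death genes.

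Translesion and excision repair genes did not move together. Of 29 tested, 4 fell and 2 rose, beside 12.9% of all genes in each direction, and their median of -0.06 lay beside the -0.04 of all genes; without scaling, 3 fell and 4 rose. Besides Polk, the translesion polymerase gene Rev1 fell, at 19.9, 19.3 and 19.2 scaled FPKM at 6 h and 9.65, 8.89 and 5.49 at 8 h, and so did Ercc5, the excision nuclease gene XPG, at 16.7, 16.2 and 15.3 scaled FPKM at 6 h and 10.03, 10.7 and 7.78 at 8 h. Poli, another translesion polymerase, was 6.08, 5.55 and 5.30 scaled FPKM at 6 h and 7.83, 8.54 and 7.64 at 8 h and rose (adjusted p = 7.93e-05). Polk and Ercc5 are also in the p53 list. The other members called were Pcna, the replication clamp gene, which rose, and Parp1, which fell, both named after their values were seen (log2 difference 0.21 and -0.37). The call of Parp1 was lost without scaling (adjusted p = 0.302) and without any 1 of the 6 libraries but the second 8 h library (adjusted p 0.0593 to 0.113).

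Pluripotency genes rose in part. Of 15 tested core pluripotency genes, 7 were called higher and 1 lower, beside 12.9% of all genes in each direction, with a median of 0.25. At 4 h, 10 had been called lower and 0 higher, beside 14.5% and 14.1% of all genes. Nanog (ENSMUSG00000012396, chr6:122707489-122714633 in GRCm38) was 91.1, 93.5 and 92.3 scaled FPKM at 6 h and 208, 214 and 211 at 8 h, 2.29-fold higher (log2 difference 1.18, SE 0.059, adjusted p = 2.77e-11). Its mean was 359 in untreated cells, 109 at 4 h and 224 at 10 h, so that at 8 h it stood between its lowest and its untreated level. Foxd3, a forkhead repressor of differentiation, was 2.71, 2.39 and 3.201 scaled FPKM at 6 h and 6.15, 6.63 and 8.01 at 8 h. Sall4, a zinc finger partner of Oct4, was 19.9, 21.8 and 22.2 scaled FPKM at 6 h and 33, 33.7 and 29.6 at 8 h, and L1td1, an RNA-binding protein of pluripotent cells, was 110.3, 110.0 and 116 scaled FPKM at 6 h and 178, 176 and 147 at 8 h. In all 4 the groups did not overlap, but they were picked as called members with the largest differences. Over the whole list 11 of 15 had no overlap, where 48.4% of all genes had none. The calls of the 2 factors at the base of the circuit depended on the processing. Sox2 was 73.7, 76.3 and 74.9 scaled FPKM at 6 h and 77.5, 78.1 and 85.2 at 8 h, with no overlap, and was not called (adjusted p = 0.216), but was called higher without scaling (0.22, adjusted p = 0.00445); its rise from 45.3 had come between 4 h and 6 h (log2 difference 0.71). Pou5f1 was 601, 591 and 599 scaled FPKM at 6 h and 454, 472 and 575 at 8 h, with the third 8 h library nearest to 6 h (log2 difference -0.26, SE 0.19, adjusted p = 0.358). It was not called here, but was called lower with the correction for GC content and length (-0.23, adjusted p = 0.0017), with library weights (-0.35, adjusted p = 2.38e-05) and when 4 outlying libraries of the series (the third untreated 0 h, the first 2 h, the third 8 h and the third 10 h libraries) were left out (-0.36, adjusted p = 0.000313). The 1 that fell was Trim28, a corepressor, named after its value was seen (352, 357 and 338 scaled FPKM at 6 h and 271, 275 and 280.4 at 8 h).

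Of 24 tested naive pluripotency genes, 10 rose and 4 fell, beside 12.9% of all genes in each direction, with a median of 0.14. Without scaling, 12 rose and 1 fell. Fgf4, the growth factor that these cells make themselves, was 25.7, 23.0 and 26.4 scaled FPKM at 6 h and 41.8, 43.1 and 41.5 at 8 h (adjusted p = 4.69e-09). Nr5a2, an orphan nuclear receptor, was 3.95, 3.69 and 3.99 scaled FPKM at 6 h and 10.5, 10.3 and 8.53 at 8 h, and Prdm14, a repressor of lineage genes, was 2.30, 2.47 and 2.15 scaled FPKM at 6 h and 5.83, 5.83 and 5.71 at 8 h. Gbx2, a homeobox target of LIF signalling, was 7.27, 8.31 and 8.14 scaled FPKM at 6 h and 12.4, 13.9 and 16.02 at 8 h, a mean of 14.1 beside the 13.1 of untreated cells. Klf4, a target of LIF and Stat3, went the other way, at 41.9, 44.1 and 43.5 scaled FPKM at 6 h and 35.7, 33.9 and 32.6 at 8 h (adjusted p = 0.00218), and had also been lower at 4 h. The other 3 that fell, named after their values were seen, were Spp1 (1.51-fold), Klf5 (1.32-fold) and Stat3 (1.22-fold). Without scaling the calls of Klf4, Klf5 and Stat3 were lost (adjusted p 0.174, 0.0628 and 0.431), and that of Stat3 was also lost without any 1 of the 6 libraries but the second 8 h library (adjusted p 0.0622 to 0.167). Esrrb and Tfcp2l1, a pair of naive regulators, were not called. Esrrb, an orphan receptor, was 122, 129 and 122 scaled FPKM at 6 h and 109, 113 and 105 at 8 h, and Tfcp2l1 was 49.4, 51.8 and 49.9 scaled FPKM at 6 h and 59.9, 59.1 and 37.4 at 8 h. Esrrb was called lower with library weights (adjusted p = 0.00151) and without the 4 outlying libraries (adjusted p = 0.0135). The third 8 h library alone put Tfcp2l1 below the 6 h range. Without that library, the median of the list relative to all genes went from 0.18 to 0.27.

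Of 11 tested formative and primed genes, 6 rose and 0 fell, beside 12.9% of all genes in each direction, with a median of 0.33. Tcf15, a basic helix-loop-helix factor of cells leaving the naive state, was 1.94, 2.77 and 1.52 scaled FPKM at 6 h and 4.86, 5.09 and 6.47 at 8 h (adjusted p = 0.00593). Zic2 was 2.47, 2.72 and 2.35 scaled FPKM at 6 h and 4.66, 5.04 and 4.50 at 8 h and Zic5 was 2.34, 2.61 and 2.48 scaled FPKM at 6 h and 4.30, 5.09 and 3.16 at 8 h; both are zinc finger factors. Sox4 was at 0.595, 0.796 and 0.753 scaled FPKM at 6 h and 1.44, 1.59 and 1.25 at 8 h. All 4 means at 8 h lay below those of untreated cells, which were 11.8 for Tcf15, 8.43 for Zic2, 5.90 for Zic5 and 2.52 for Sox4.

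Within the Nodal pathway, the Lefty inhibitors rose, and a transducer and the inhibitory Smad7 fell. Of 14 tested members, 4 were called higher and 4 lower, beside 12.9% of all genes in each direction, with a median of 0.09. Without scaling these counts were 4 and 2. The ligand gene Nodal was 40.2, 40.6 and 37.6 scaled FPKM at 6 h and 41.1, 37.9 and 47.3 at 8 h and was not called (adjusted p = 0.674). Smad3, which carries the signal to the nucleus, was 5.41, 6.79 and 5.91 scaled FPKM at 6 h and 2.18, 2.402 and 2.03 at 8 h, 2.74-fold lower (adjusted p = 6.56e-07), and Acvr1b, a receptor kinase, was 9.53, 9.48 and 10.2 scaled FPKM at 6 h and 7.16, 7.65 and 6.86 at 8 h. The call of Acvr1b was lost without 5 of these 6 libraries in turn (adjusted p 0.0665 to 0.102). The inhibitory Smad7 was 11.8, 13.6 and 12.8 scaled FPKM at 6 h and 9.14, 9.56 and 10.1 at 8 h. Tdgf1, the Nodal coreceptor Cripto, and Furin, a protease that processes Nodal, also rose, and Pcsk6, a related protease, fell; they were named after their values were seen (log2 difference 0.25, 0.31 and -0.38); Pcsk6 was not called without scaling (adjusted p = 0.177). Eomes, a T-box factor that Nodal induces, was 0.604, 0.551 and 0.686 scaled FPKM at 6 h and 3.98, 3.37 and 3.49 at 8 h (log2 difference 1.51, adjusted p = 2.77e-11), and its mean of 3.61 at 8 h was close to the 3.56 of untreated cells. Of 8 tested genes of the BMP list, only Bmp4 rose and only Smad7 fell, near the 12.9% of all genes each way. The median was 0.12, and without scaling, the third untreated 0 h library or the first 2 h library, 3 rose.

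Genes of the Wnt pathway split by direction. Of 11 tested, 5 rose and 4 fell, beside 12.9% of all genes in each direction, with a median of -0.13. Leaving out each of these 6 libraries in turn left 3 to 5 higher and 2 to 4 lower. The fewest rises came without the first or the third 6 h library or the second 8 h library. The fewest falls came without the second 6 h or first 8 h library. Sp5, a direct target of beta-catenin, was 2.37, 2.53 and 2.81 scaled FPKM at 6 h and 6.49, 6.36 and 8.89 at 8 h, and Axin2, the feedback inhibitor of the pathway, was 3.93, 3.61 and 3.89 scaled FPKM at 6 h and 7.41, 7.93 and 6.44 at 8 h. Cdx1, a caudal homeobox target, was 3.22, 3.40 and 4.25 scaled FPKM at 6 h and 7.75, 8.47 and 11.1 at 8 h. The means of all 3 at 8 h lay above those of untreated cells, which were 1.94, 3.71 and 6.24. The ligand gene Wnt3 was 2.80, 2.50 and 3.03 scaled FPKM at 6 h and 1.06, 1.06 and 1.17 at 8 h, and the secreted Wnt inhibitor Notum, named after its value was seen, was 6.69, 7.62 and 5.56 scaled FPKM at 6 h and 3.77, 4.02 and 4.64 at 8 h. The call of Notum was lost without the second 6 h library (adjusted p = 0.0792) or the first 8 h library (adjusted p = 0.0595). The 2i supplement contains an inhibitor of the kinase Gsk3, which stabilises beta-catenin in all groups.

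Immediate early genes formed no single group: of 29 tested, 8 rose and 9 fell, beside 12.9% of all genes in each direction. Their median was -0.07. The AP-1 gene Fos was 4.32, 4.66 and 5 scaled FPKM at 6 h and 2.18, 2.03 and 2.27 at 8 h, and the stress factor Atf3 was 7.67, 7.97 and 6.47 scaled FPKM at 6 h and 4.87, 3.93 and 4.23 at 8 h, both falling towards the untreated means of 0.963 and 2.86. Jund, an AP-1 partner, was 19.8, 25 and 23.5 scaled FPKM at 6 h and 44.1, 45.0 and 53.7 at 8 h and rose 2.09-fold (adjusted p = 0.00195). Klf10, a TGF-beta inducible factor, was 7.39, 7.14 and 7.55 scaled FPKM at 6 h and 15.2, 15.7 and 13.2 at 8 h. Plaur, the urokinase receptor, was 7.98, 8.06 and 9.40 scaled FPKM at 6 h and 19.0, 20.4 and 23.6 at 8 h, above the 4.24 of untreated cells. Egr1, the early growth response factor, was 0.914, 1.66 and 1.39 scaled FPKM at 6 h and 0.57, 0.609 and 0.436 at 8 h and did not pass the filter of 1 FPKM in at least 3 of the 6 libraries.

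Of 12 tested genes of the Myc network, 7 were called higher and 0 lower, beside 12.9% of all genes in each direction. Their median was 0.30, and without the third 8 h library 5 were called higher and 0 lower. Mycn, the family member these cells express most by these values, was 9.15, 8.51 and 8.10 scaled FPKM at 6 h and 15.0, 16.2 and 16.3 at 8 h (log2 difference 0.81, SE 0.063, adjusted p = 5.9e-09), against 4.57 at 4 h and 31.9 in untreated cells. Myc was 6.22, 6.55 and 6.66 scaled FPKM at 6 h and 9.29, 8.36 and 9.82 at 8 h, and Mycl was 1.06, 0.899 and 0.895 scaled FPKM at 6 h and 1.93, 1.73 and 1.64 at 8 h. The antagonists moved too: Mnt, which competes with Myc for Max, was 9.59, 9.002 and 8.92 scaled FPKM at 6 h and 14.1, 13.7 and 14.1 at 8 h, and Mxd3 was 1.20, 0.78 and 1.39 scaled FPKM at 6 h and 2.66, 2.17 and 2.87 at 8 h. Mxd3 lost its call without the second 6 h library (adjusted p = 0.0843) or the third 8 h library (adjusted p = 0.0598). Max, also called higher, lost its call without the third 8 h library (adjusted p = 0.0747).

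Mitosis genes were called in 1 direction. Of 40 tested, 19 were called higher and 0 lower, beside 12.9% of all genes in each direction, with a median of 0.24. At 4 h, 24 of them had been called lower and 0 higher, beside 14.5% and 14.1% of all genes. Promoters of 3 of them are shown because the mitotic programme is known to be read through 2 short elements, the cell cycle genes homology region (searched as TTTGAA, both strands) and the CCAAT box (searched as CCAAT, both strands). Sequences run from 250 bases before to 50 after the annotated start, 5′ to 3′ on the strand of the gene, from RefSeq on GRCm38.p6, a patch release of mm10; matches are in capitals, and of the 2 windows of Prc1 the one with most matches is printed.
Plk1 (chr7:122159185-122159484, plus strand): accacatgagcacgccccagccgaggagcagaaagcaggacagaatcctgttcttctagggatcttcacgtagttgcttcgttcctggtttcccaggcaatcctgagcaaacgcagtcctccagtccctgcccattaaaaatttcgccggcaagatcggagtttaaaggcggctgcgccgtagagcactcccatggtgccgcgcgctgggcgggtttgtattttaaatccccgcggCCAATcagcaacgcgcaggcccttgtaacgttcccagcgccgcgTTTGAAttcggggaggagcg
Aurka (chr2:172370521-172370820, minus strand): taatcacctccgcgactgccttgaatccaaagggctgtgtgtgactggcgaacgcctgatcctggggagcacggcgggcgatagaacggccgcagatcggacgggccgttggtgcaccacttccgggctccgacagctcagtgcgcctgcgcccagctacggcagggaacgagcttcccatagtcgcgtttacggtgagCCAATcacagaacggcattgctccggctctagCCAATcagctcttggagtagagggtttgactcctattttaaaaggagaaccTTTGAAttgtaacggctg
Prc1 (chr7:80294201-80294500, plus strand): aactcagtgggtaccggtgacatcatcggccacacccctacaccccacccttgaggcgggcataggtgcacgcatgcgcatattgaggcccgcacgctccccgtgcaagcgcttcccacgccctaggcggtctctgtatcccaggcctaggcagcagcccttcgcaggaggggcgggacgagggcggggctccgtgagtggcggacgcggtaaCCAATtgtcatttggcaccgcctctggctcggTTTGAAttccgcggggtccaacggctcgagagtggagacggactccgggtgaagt

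Plk1, the polo-like kinase that drives entry into mitosis, was 26.0, 25.8 and 28.2 scaled FPKM at 6 h and 43.2, 44.1 and 50.5 at 8 h, 1.72-fold higher (log2 difference 0.76, SE 0.081, adjusted p = 4.93e-07). Aurka, the spindle pole kinase, was 33.3, 32.6 and 34.0 scaled FPKM at 6 h and 50.1, 51.2 and 52.4 at 8 h (adjusted p = 2.96e-08), and Prc1, which bundles microtubules at the midzone, was 11.98, 11.9 and 11.6 scaled FPKM at 6 h and 19.4, 19.1 and 15.8 at 8 h. Cks2, a small subunit of cyclin-dependent kinases, was 59.3, 58.4 and 59.1 scaled FPKM at 6 h and 97.5, 103 and 126 at 8 h, highest in the third 8 h library. All 4 stood below the untreated mean at 6 h, and only Prc1 reached it at 8 h (18.1 against 16.4). Ccnb1, which codes for cyclin B1, moved from 73.3 ± 1.36 to 83.4 ± 0.838, a call that was lost without the second 6 h library (adjusted p = 0.0607) or the second 8 h library (adjusted p = 0.0524). The TTTGAA element was present in the windows of 21 of 33 mitosis genes found in the promoter table, 7 of 12 that rose and 14 of 21 that were not called, against 20.2% of all 27025 genes in it. CCAAT was present in 27 of the 33 and in 41.1% of all. The shares were no higher among the genes that rose, and a match of letters is a description, not a site.

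Of 46 tested genes of DNA replication and G1/S, 8 rose and 4 fell, with a median of -0.05, which sets the list near the 12.9% of all genes called in each direction. The rises included both genes of the E cyclins, which open S phase: Ccne1 was 32.2, 29.0 and 29.9 scaled FPKM at 6 h and 49.0, 49.7 and 53.6 at 8 h and Ccne2 was 5.10, 5.69 and 6.08 scaled FPKM at 6 h and 9.96, 10.1 and 10.2 at 8 h. The atypical repressor E2f8 was 2.61, 2.93 and 3.03 scaled FPKM at 6 h and 5.57, 5.84 and 4.61 at 8 h and the activator E2f2 was 3.54, 3.33 and 3.76 scaled FPKM at 6 h and 6.18, 6.25 and 6.38 at 8 h. The 4 that fell, named after their values were seen, were the helicase subunits Mcm2, Mcm3 and Mcm7 and the ligase Lig1. Mcm7 was 133, 138 and 131 scaled FPKM at 6 h and 105, 107 and 109.6 at 8 h. The calls of Mcm2, Mcm3 and Lig1 were lost without scaling (adjusted p 0.207, 0.364 and 0.397), and that of Lig1 also without any 1 of the 6 libraries but the second 8 h library (adjusted p 0.0582 to 0.0824). Without scaling, 15 of the list rose and 1 fell, but more of all genes were then also called higher and fewer lower. Without the third untreated 0 h library 10 rose and 7 fell, where more of all genes were called in each direction.

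Of 27 tested NRF2 targets, 2 rose and 1 fell, beside 12.9% of all genes in each direction, with a median of -0.06. The count depended on the processing: without scaling, 7 were called higher and 1 lower, without the third untreated 0 h library 4 and 2, and without the 4 outlying libraries 4 and 9, where 2785 and 3286 of all genes were called. The 2 that rose are shown with their promoters, because both hold, as do 7 of 18 targets that were not called, the core of the antioxidant response element to which NRF2 binds with small Maf proteins (searched as TGACNNNGC, both strands). Matches are in capitals, as are those of the AP-1 site (TGANTCA, both strands), with which this element can overlap. In the Srxn1 window, matches to these 2 spellings did not overlap, and the Gclm window held no AP-1 match. The AP-1 match of Srxn1 nearer the start is followed by GC. A spelling of the element that begins with TGAG would match there, but was not searched.
Srxn1 (chr2:152105274-152105573, plus strand): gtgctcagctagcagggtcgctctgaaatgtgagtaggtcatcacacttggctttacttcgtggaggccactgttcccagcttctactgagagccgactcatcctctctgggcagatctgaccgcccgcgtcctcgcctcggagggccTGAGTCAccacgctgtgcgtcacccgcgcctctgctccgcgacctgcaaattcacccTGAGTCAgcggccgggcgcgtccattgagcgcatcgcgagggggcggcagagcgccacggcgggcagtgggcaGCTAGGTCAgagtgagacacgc
Gclm (chr3:122245307-122245606, plus strand): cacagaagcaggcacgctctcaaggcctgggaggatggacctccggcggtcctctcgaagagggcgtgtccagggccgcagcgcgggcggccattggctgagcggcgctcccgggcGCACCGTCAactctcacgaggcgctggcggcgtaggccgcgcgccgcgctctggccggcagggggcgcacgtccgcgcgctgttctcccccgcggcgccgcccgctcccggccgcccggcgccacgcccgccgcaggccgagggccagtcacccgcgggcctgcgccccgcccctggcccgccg

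Srxn1, the gene of sulfiredoxin, which repairs overoxidised peroxiredoxins, was 16.6, 18.2 and 16.8 scaled FPKM at 6 h and 30.6, 30.4 and 31.1 at 8 h, 1.78-fold higher (log2 difference 0.80, SE 0.053, adjusted p = 8.39e-10). Gclm, the modifier subunit of the enzyme that limits glutathione synthesis, was 13.8, 13.1 and 14.4 scaled FPKM at 6 h and 20.01, 19.1 and 19.9 at 8 h (adjusted p = 1.33e-05). Both stood above the untreated means of 14.5 and 13.6 at 8 h, and higher still at 10 h, at 37.4 and 24.4. Hmox1, Nqo1, Txnrd1 and Sqstm1 were not called, but all except Txnrd1 were in some alternatives. Hmox1, heme oxygenase 1, was 226, 229 and 238 scaled FPKM at 6 h and 208, 207 and 235 at 8 h (adjusted p = 0.493), and its sign changed without scaling (log2 difference -0.09 and 0.04); it was called lower with library weights (adjusted p = 0.00334) and without the 4 outlying libraries (adjusted p = 0.0452). Nqo1, a quinone reductase, was 43.6, 44.8 and 44.0 scaled FPKM at 6 h and 50.1, 49.4 and 51.5 at 8 h, which did not overlap (adjusted p = 0.0729). It was called higher in 8 alternatives, among them those without scaling (adjusted p = 0.000477), with the 6 libraries alone (0.0157) and without the third untreated 0 h library (0.0395) or the first 2 h library (0.0468). Txnrd1, thioredoxin reductase, was 43.1, 44.0 and 44.9 scaled FPKM at 6 h and 45.0, 47.2 and 40.5 at 8 h (adjusted p = 0.982). The autophagy receptor gene Sqstm1 was 78.0, 78.6 and 79.6 scaled FPKM at 6 h and 87.0, 88.8 and 104 at 8 h, with no overlap (adjusted p = 0.19), and was called higher in 6 alternatives (adjusted p 0.00187 to 0.0347). Idh1, a source of NADPH, fell, at 45.6, 46.4 and 45.1 scaled FPKM at 6 h and 35.2, 34.0 and 32.8 at 8 h. The element was present in 9 of 21 NRF2 target genes with a window and in 14% of all genes, and TGANTCA in 9.0% of all.

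In the thioredoxin, peroxiredoxin and glutathione peroxidase system, 3 of 27 rose and 3 fell, near the 12.9% of all genes in each direction, with a median of -0.10. Without scaling, 6 rose and 2 fell. Without the 4 outlying libraries 5 rose and 12 fell, in a setting where more of all genes were called in each direction. Txnip, the inhibitor of thioredoxin, was 20.1, 20.3 and 19.0 scaled FPKM at 6 h and 29.5, 29.8 and 26.8 at 8 h (adjusted p = 1.5e-05), in a course that had dropped from 62.5 in untreated cells to 10.6 at 4 h. Prdx6, a peroxiredoxin, was 64.1, 66.0 and 60.2 scaled FPKM at 6 h and 46.7, 47.5 and 51.0 at 8 h. Msrb2 and Gpx8 were called higher, but each lost the call without the third 8 h library (adjusted p 0.129 and 0.105) and without 3 other libraries in turn. Without the third 6 h, the first 8 h or the third 8 h library, 1 of the list rose and 2 or 3 fell.

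Genes of ATF4 and its stress response fell in most cases. Of 30 tested genes of this stress response, 19 fell and 1 rose, beside 12.9% of all genes in each direction. Their median was -0.35, and without scaling 12 fell and 3 rose. At 4 h, 6 of the 30 had been called higher and 2 lower, beside 14.1% and 14.5% of all genes. Slc7a3, a cationic amino acid transporter, was 25.8, 24.4 and 25.4 scaled FPKM at 6 h and 14.8, 16.2 and 15.0 at 8 h (log2 difference -0.68, SE 0.058, adjusted p = 2.8e-08), below the 41.3 of untreated cells. The 1 that rose was Chac1, which degrades glutathione, at 1.28, 1.15 and 1.11 scaled FPKM at 6 h and 2.87, 1.92 and 3.33 at 8 h. Aminoacyl-tRNA synthetase genes, several of them ATF4 targets, fell in 15 of 20 cases and rose in 0, with a median of -0.34. The share of all genes was again 12.9% in each direction. At 4 h, 5 of these 20 had been called higher and 0 lower. Cars, the cysteine enzyme, was 41.4, 42.5 and 40.9 scaled FPKM at 6 h and 29.4, 30.1 and 28.9 at 8 h, and Gars, the glycine enzyme, was 116, 121 and 112 scaled FPKM at 6 h and 85.4, 85.8 and 82.8 at 8 h. Yars was 35.7, 34.3 and 32.6 scaled FPKM at 6 h and 25.1, 25.4 and 25.4 at 8 h. Every one of the 20 had no overlap between its 6 h and 8 h libraries, where 48.4% of all genes had none. Without scaling, 7 of them fell.

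Splicing factors mostly fell. Of 35 tested SR proteins, hnRNPs and splicing kinases, 20 fell and 2 rose, beside 12.9% of all genes in each direction. Their median was -0.34. Without scaling, 14 fell and 2 rose, with a median of -0.21. The Clk kinases, which phosphorylate SR proteins, moved together: Clk2 was 13.6, 12.4 and 12.8 scaled FPKM at 6 h and 7.03, 6.04 and 5.82 at 8 h, Clk4 was 11.8, 10.9 and 11.7 scaled FPKM at 6 h and 6.10, 5.59 and 5.16 at 8 h and Clk1 was 18.7, 17.4 and 18.5 scaled FPKM at 6 h and 9.94, 9.05 and 8.74 at 8 h. They were 2.05-fold, 2.04-fold and 1.97-fold lower, after a rise between 4 h and 6 h (log2 difference 0.49, 0.69 and 0.66). Srsf3, an SR protein that controls its own splicing, rose, at 39.5, 37.4 and 39.7 scaled FPKM at 6 h and 61.7, 59.3 and 59.0 at 8 h (adjusted p = 1.31e-07). Its mean had been 86.2 in untreated cells. The other that rose, named after its value was seen, was Srsf7 (log2 difference 0.44).

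Ribosome biogenesis genes fell in 14 of 46 cases and rose in 1, beside 12.9% of all genes in each direction. Their median was -0.23, and without scaling 4 fell and 2 rose. At 4 h, 4 of the 46 had been called higher and 5 lower, beside 14.1% and 14.5% of all genes. Ncl, nucleolin, was 248, 278 and 257 scaled FPKM at 6 h and 198, 199 and 173 at 8 h, not called without scaling (adjusted p = 0.13), and Noc2l, a nucleolar p53 corepressor, was 46.1, 49.6 and 49.9 scaled FPKM at 6 h and 34.2, 33.5 and 33.2 at 8 h. Taf1a, a subunit of the RNA polymerase I selectivity factor, was 11.9, 11.1 and 12.2 scaled FPKM at 6 h and 7.37, 6.94 and 6.74 at 8 h. Dkc1, dyskerin, was 58.4, 60.4 and 57.6 scaled FPKM at 6 h and 47.9, 47.6 and 39.5 at 8 h. Its call was lost without the third 8 h library (adjusted p = 0.082) and without scaling (adjusted p = 0.22). Cytosolic ribosomal protein genes gave 0 calls in limma in 87 tested, with 2 at an unadjusted p under 0.05 and a median of -0.17. Rpl19, of the large subunit, was 1839, 1933 and 1798 scaled FPKM at 6 h and 1479, 1482 and 1940 at 8 h, with the third 8 h library in the 6 h range. When the 4 outlying libraries were left out, 71 of the 87 were called lower, Rpl19 among them (adjusted p = 0.00474). More of all genes were also called lower in that setting, with the count given under the dependence on processing.

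Of 45 tested lysosomal genes, 7 fell and 1 rose, beside 12.9% of all genes in each direction, with a median of -0.08; without scaling 4 fell and 5 rose, and without the third untreated 0 h library 8 and 3. At 4 h, 29 of them had been called higher and 2 lower, beside 14.1% and 14.5% of all genes. Flcn, folliculin, which restrains the lysosomal factors TFEB and TFE3, was 29.4, 30.4 and 31.1 scaled FPKM at 6 h and 19.1, 19.7 and 18.0 at 8 h (adjusted p = 2.11e-07). Its partner Fnip2 was 11.5, 11.4 and 12.3 scaled FPKM at 6 h and 7.39, 7.001 and 4.77 at 8 h, not called without the third 8 h library (adjusted p = 0.0724). Mcoln1, the calcium channel of the lysosome, was 8.74, 7.13 and 7.93 scaled FPKM at 6 h and 5.45, 5.38 and 5.89 at 8 h. Circadian genes were called higher in 6 of 15 cases and lower in 2, beside 12.9% of all genes in each direction. The falls were near that share, and the median was 0.04. The repressor Nfil3 was 1.47, 1.15 and 1.14 scaled FPKM at 6 h and 3.004, 3.04 and 3.54 at 8 h. Its relative Tef went the other way, at 9.61, 9.58 and 8.84 scaled FPKM at 6 h and 5.32, 5.47 and 4.19 at 8 h.

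**Figure D3:**
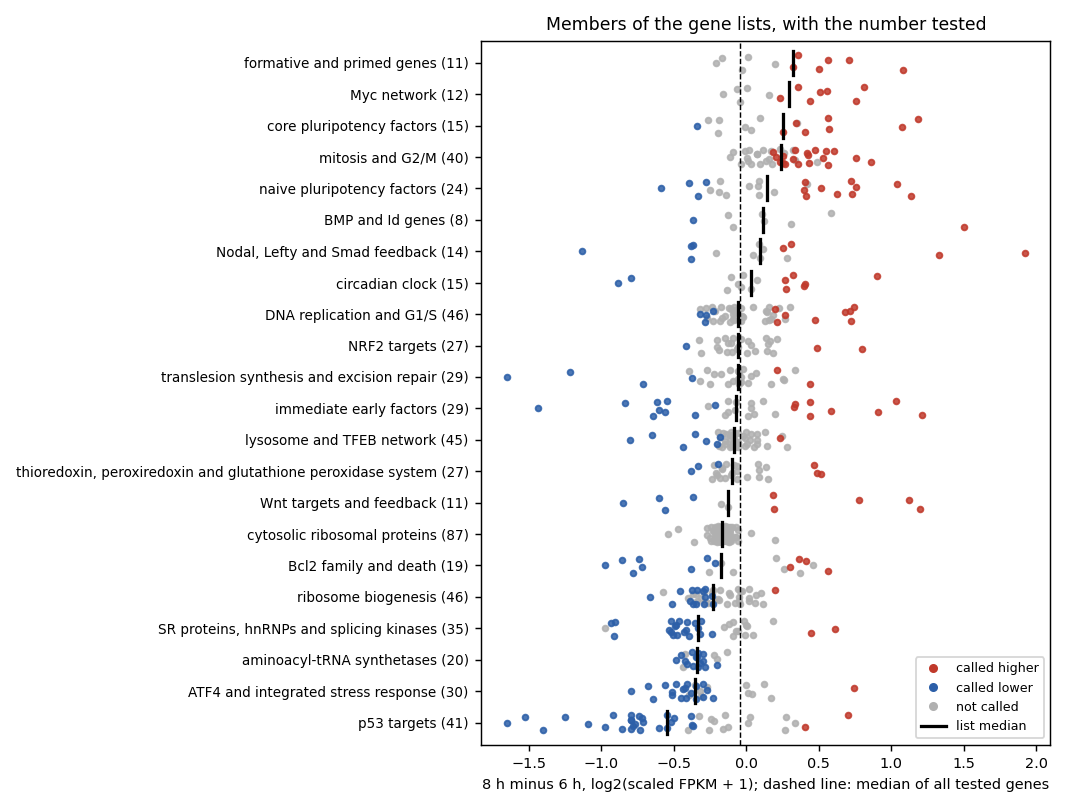
Points are the tested members of 22 gene lists, with the log2(scaled FPKM + 1) difference between 8 h and 6 h on the x axis; red members were called higher, blue lower and grey neither, black bars are list medians and the dashed line is the median of all tested genes (-0.04). Medians run from -0.55 for p53 targets to 0.33 for formative and primed genes, and ribosomal protein genes cluster at -0.17 with no call.

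The next step, from 8 h to 10 h, held 322 rises (2.58%) and 478 falls (3.82%). Mdm2 moved from 54.1 to 60.1 (log2 difference 0.15, adjusted p = 0.681) and Nanog from 211 to 224 (0.08, adjusted p = 0.544). Lefty1 rose further, to 14.3 (1.10, adjusted p = 0.000718), and Lefty2 to 19.6 (1.43, adjusted p = 1.56e-07). Myc rose to 13.7 (0.53, adjusted p = 0.00331). Hmox1 declined to 168 (-0.37, adjusted p = 0.0117). These values share the 8 h libraries with the step described here. At 24 h the treated cells had 48.8 of Mdm2, against 29.1 in untreated cells of the same time, and 354 of Nanog, against 387.

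**Figure D4:**
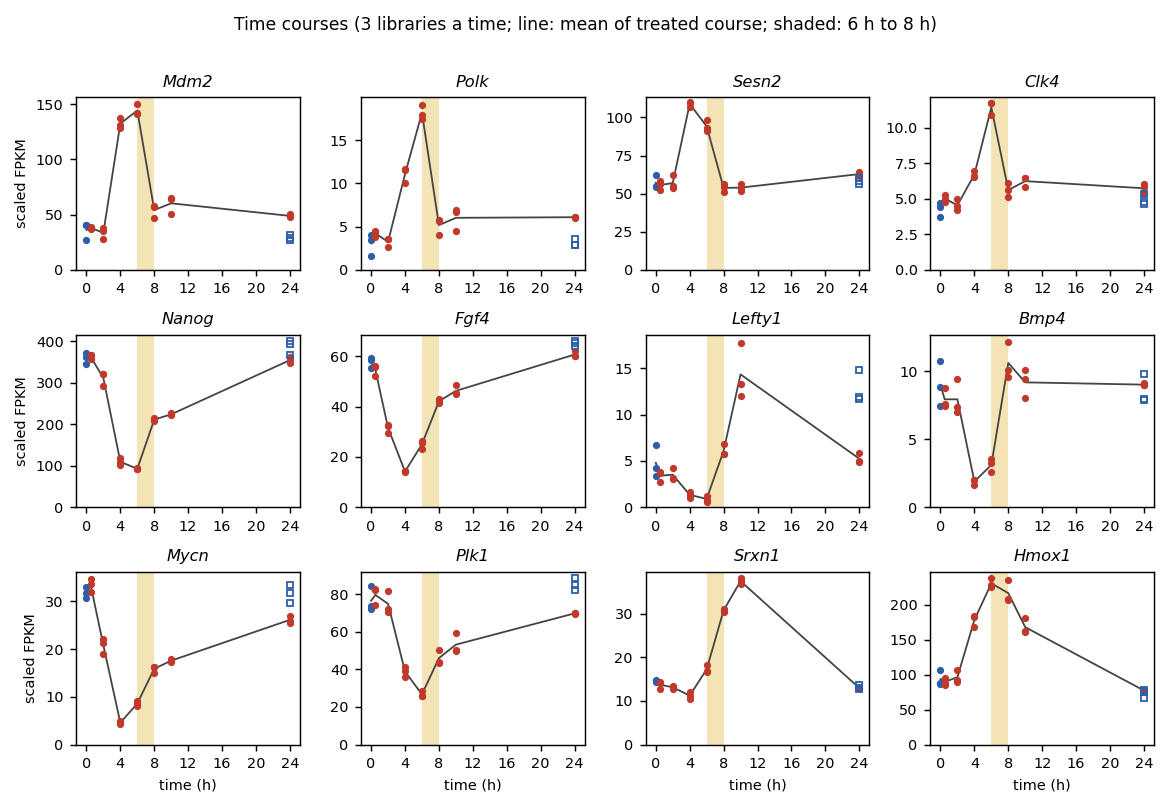
Scaled FPKM of single libraries against hours for 12 genes, with untreated 0 h libraries in filled blue, treated libraries in red, untreated 24 h libraries as open blue squares, a line through the means and the span from 6 h to 8 h shaded. Mdm2, Polk, Sesn2 and Clk4 drop within the shaded span and Nanog, Fgf4, Lefty1, Bmp4, Mycn, Plk1 and Srxn1 rise in it, while the 6 Hmox1 values there lie between 207 and 238.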

How the data were processed

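Poly(A) RNA of 27 cultures was sequenced as stranded paired-end libraries, per the labels. The authors deposited FPKM per gene and library in 7 tables; per the submitters' processing notes, cutadapt, FastQC, HISAT2, StringTie, edgeR and mm10 were used, while no source used here gives versions, the annotation release or whether counting used strand. Reads of close copies and of overlapping or antisense genes may be shared. Tables were joined by gene ID over 38352 genes. FPKM were divided by median-of-ratios factors, and genes that reached 1 FPKM in 3 or more of the 6 libraries were tested on log2(scaled FPKM + 1) with limma 3.58.1 in R 4.3.3, with a mean-variance trend and all 27 libraries as 9 group means. Benjamini-Hochberg adjustment ran over all tested genes, and 3 replicates per group limit the precision. The fit was tested on simulated data.

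Named genes were the 12 largest called rises and falls (mean of at least 5 scaled FPKM in the higher group, no overlap, usual symbol, no marker of another cell type), up to 4 called members of each of 39 lists by size, or the 2 most expressed if none was called, and a panel of 30; others are said to be chosen after their values were seen. Members and lists were chosen with earlier results of these data known. Coordinates are from GENCODE M21 (GRCm38) and promoters from RefSeq (GRCm38.p6). Same-numbered replicates were not paired (correlation of deviations 0.07, 0.04 and -0.11). The replicates come from independent time courses, and p-values measure the spread between them. Alternatives covered the pseudocount (0.1), filters, scaling, trend, libraries, replicate block, GC content with length, and library weights. The series design text and the treatment protocol give the peroxide concentration in different units (mM and µM); the latter is used.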

Additional observations from a re-analysis of the deposited data

How the results depend on the processing

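Counts of called genes depended most on how the libraries that stood apart were treated. Without those 4, 6071 of 12501 genes were called in place of 3224, 2785 higher and 3286 lower. List counts given above for that setting are to be read beside these, not beside 12.9%. With library weights there were 7439, 3325 higher and 4114 lower. In the same 2 settings, 2028 and 1902 genes higher at 4 h then fell, and 1919 and 1909 lower at 4 h then rose. Here and below the calls at 4 h were made anew in each setting, so these counts are not parts of the classes described above. A filter of 5 FPKM left 2014 called, 871 higher, 597 of them lower at 4 h. Without scaling, 818 fell, 598 of them higher at 4 h. Leaving out single libraries gave 2548 to 4099 called genes, 1284 to 2011 higher and 1248 to 2088 lower, 768 to 1038 that were higher at 4 h and fell and 844 to 1223 that were lower at 4 h and rose. The 4099 came without the third untreated 0 h library. Fits without the first 2 h or the third 10 h library were added after seeing the data. With a replicate block there were 3388 calls (1686 higher, 1702 lower), and not every library correlated best with its own number, so the numbers were not taken as pairs. The correction for GC content and length gave 4531 calls, a pseudocount of 0.1 gave 3084, no filter 3823 and no trend 3225; a fit of the 6 libraries alone gave 3652 and no value at 4 h.

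Medians of lists are given here relative to all genes. Without the filter they were 0.098 for naive, 0.246 for formative, 0.059 for Wnt, 0.249 for mitosis, -0.225 for ribosome biogenesis, -0.332 for tRNA synthetase, -0.328 for splicing, -0.005 for death and 0.014 for circadian genes. With a filter of 5 FPKM they were 0.277 for formative, 0.555 for Wnt (-0.084 with 1 FPKM), 0.329 for mitosis, -0.157 for ribosome biogenesis, -0.263 for tRNA synthetase, -0.269 for splicing and 0.197 for circadian genes. A pseudocount of 0.1 gave 0.419 for Myc and 0.312 for mitosis genes. The correction for GC content and length gave 0.263 for mitosis and -0.317 for splicing genes, with and without the replicate block, and no scaling gave -0.271 for splicing genes. Library weights gave -0.078 for translesion and 0.252 for naive genes. Without the 4 libraries the values were -0.056 for translesion, 0.274 for naive and -0.390 for ATF4 genes. Leaving out single libraries gave -0.055 to 0.019 for translesion, 0.162 to 0.273 for naive, 0.287 to 0.384 for formative, -0.045 to 0.024 for immediate early, -0.391 to -0.288 for ATF4, 0.267 to 0.30 for mitosis and -0.171 to -0.064 for death genes. The alternatives were followed for 153 named genes. Of the 137 called among them, 113 kept their direction and call in all of the 25 alternatives that tested them. Among the 153 genes named, the sign of the log2 difference changed only in 6 that were not called: Nodal (-0.001 to 0.156 without single libraries, the lowest without the third at 8 h), Tfcp2l1 (-0.098 to 0.235, and -0.088 without the second at 8 h), Txnrd1 (-0.044 to 0.065, and -0.010 without the first at 6 h or 8 h), Hmox1 (0.035 without scaling), Gfap (-0.121 to 0.664) and Lcn2 (-0.194 to 0.924), the last pair lowest without the first at 6 h. For these shifts the cause was not tested. The files give no read counts, so depth as a limit on low genes could not be measured.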

Other observations

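Genes of sugar metabolism were split between rises and falls. Of 31 tested glycolysis and hypoxia genes, 6 rose and 10 fell, beside 12.9% of all genes in each direction. The median log2 difference was -0.12. Slc2a1, the glucose transporter Glut1, was 32.2, 33.4 and 34.0 scaled FPKM at 6 h and 45.9, 48.0 and 51.1 at 8 h, and Hk2, a hexokinase that traps glucose in the cell, was 33.2, 32.4 and 33.9 scaled FPKM at 6 h and 51.7, 52.2 and 41.6 at 8 h. Ldha, lactate dehydrogenase A, named after its value was seen, was 230.5, 238 and 232 scaled FPKM at 6 h and 156, 164 and 176 at 8 h, and its mean had been 289.8 in untreated cells. Without scaling 6 rose and 6 fell.

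Chaperone genes had more falls than rises. Among 22 tested genes of the endoplasmic reticulum, 2 rose and 7 fell, beside 12.9% of all genes in each direction. The rises were near that share. Xbp1, a transcription factor of the unfolded protein response, was 5.15, 4.90 and 5.76 scaled FPKM at 6 h and 9.84, 10.2 and 10.2 at 8 h, while Hsp90b1, the chaperone Grp94, was 123, 124 and 118 scaled FPKM at 6 h and 90.9, 89.2 and 78.0 at 8 h, not called without scaling (adjusted p = 0.0537). Among 22 tested cytosolic chaperone genes, 2 rose and 6 fell, the rises again near the 12.9% of all genes. Bag3, a cochaperone of Hsp70, was 10.2, 10.5 and 9.24 scaled FPKM at 6 h and 15.6, 16.6 and 16.7 at 8 h. Hsp90ab1, the constitutive Hsp90, was 2256, 2341 and 2237 scaled FPKM at 6 h and 1745, 1801 and 1687 at 8 h. Without scaling, 2 genes of the endoplasmic reticulum list rose and 2 fell, and 3 and 4 of the cytosolic list.

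Among 24 tested collagen, laminin and integrin genes, 1 rose and 5 fell, beside 12.9% of all genes in each direction; without scaling, 1 rose and 1 fell. Itga5, the fibronectin receptor subunit alpha 5, was 10.2, 10.8 and 11.5 scaled FPKM at 6 h and 19.2, 19.8 and 19.9 at 8 h, with no overlap between the groups (adjusted p = 5e-08 in limma). The falls in this list were fewer, at 2 or 3, without any 1 of 5 of the 6 libraries (all but the first 8 h library).

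Of the genes called at 4 h, 39 that had been higher rose again between 6 h and 8 h and 27 that had been lower fell again; those named here were chosen after their values were seen. Dusp1, a phosphatase that switches off MAP kinases, had means of 5.96 scaled FPKM in untreated cells, 15.4 at 2 h, 8.50 at 4 h, 11.2 at 6 h and 14.3 at 8 h, so that it was highest at 2 h and climbed again after 4 h. Cmtm3, which codes for a membrane protein, had means of 3.13, 3.11, 4.79, 5.15 and 8.47 at the same times. In the other direction, Spp1, which codes for osteopontin, had means of 379, 360.3, 334, 261 and 173, and Notum had means of 15.4, 14.1, 10.4, 6.62 and 4.14; the call of Notum was lost without the second 6 h or the first 8 h library (adjusted p 0.0792 and 0.0595).

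Among 2084 tested gene models without a usual symbol, 106 rose (5.09%) and 176 fell (8.45%); among 10417 genes with a symbol, 1502 rose (14.4%) and 1440 fell (13.8%). The difference between these shares was not tested.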
